A study of Mus musculus with 67 samples.

Results

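The chromatin accessibility of pMN and p3 neural progenitors (NPs) was compared at day 5 of differentiation, with the concentration of the Shh agonist SAG as a covariate. The comparison took in every day 5 sample labeled pMN or p3, which made 10 of the 67 samples of the series. There were 5 samples of pMN and 5 of p3, in each case 3 from 100 nM SAG and 2 from 500 nM SAG. All came from the mouse embryonic stem cell line HM1, differentiated on Matrigel in N2B27 with bFGF and LGK, then with bFGF, CHIR99021, SB-431542 and DMH1, and from day 3 with 100 nM retinoic acid plus SAG. Cells were fixed, exposed to the transposase Tn5, stained for intracellular transcription factors (TFs) and sorted by flow cytometry (CaTS-ATAC). Live SOX2+ cells were taken as NPs, pMN as OLIG2+ without NKX2.2 and p3 as NKX2.2+ OLIG2-, so the 2 groups were defined by proteins and not by accessibility. A sample is a sorted population, and accessibility in more of its cells cannot be told apart from greater accessibility per cell.

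The p3 and pMN domains are neighbors in the ventral neural tube. p3 lies next to the floor plate, is marked by NKX2.2 and gives rise to V3 interneurons, whereas pMN expresses OLIG2 and generates motor neurons. Shh from the notochord and floor plate induces both, and their TFs repress each other. ATAC-seq marks the stretches of DNA that a transposase can reach, among them promoters and the distal enhancers through which TFs of the FOX, SOX, homeodomain and basic helix-loop-helix (bHLH) families act.

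Accessibility was given for 111638 consensus elements as a log2 variance-stabilized value (VST) of reads normalized by size factors. Between 19796834 and 26704636 reads fell in elements in the pMN samples and between 15464288 and 23859572 in the p3 samples. Elements near the transcription start site (TSS) of marker genes were examined against the labels. At Olig2, the TF used to sort pMN, the element within 1000 bp of the TSS had 1952 ± 116 normalized counts in pMN and 1040 ± 116 in p3 (SD, n = 5 each), and at its neighbor Olig1 the values were 885 ± 54.1 and 602 ± 72.6. Nkx2-9, an NK2 homeobox gene of the most ventral progenitors, was the only marker of p3, of 4, with such an element, and the gene of NKX2.2 itself was not analysed here. The Nkx2-9 element had 1868 ± 259 normalized counts in pMN and 2376 ± 122 in p3. No sample of either type overlapped the other at these 3 elements. Summed over the 4 of 5 floor plate markers with an element at the TSS, p3 samples had 1155 to 1540 normalized counts and pMN samples 684 to 776, and for the 5 postmitotic neuron markers the ranges were 2621 to 3126 in p3 and 3764 to 4386 in pMN. Sums over the 5 motor neuron, 3 NMP, 3 neural crest, 3 endoderm and 3 pluripotency markers that had such an element overlapped between the types, and those of the pluripotency genes were the lowest, at 81.8 to 119 in p3 and 80 to 92 in pMN. No marker element was at 0 in all samples.

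Central sequences of 5 called elements are shown as examples of short motifs that were counted in all elements, as described further on. They were chosen because they hold a match and lie at or near genes described in the text or among the largest differences, so they do not represent the called elements at large. Each is the central 300 bp of an element on the plus strand of mm10, read from the RefSeq copy of that assembly. Capitals mark matches, on either strand, to the FOXA motif TGTTTAC, its variant TATTTAC, the TEAD motif GGAATG and the E-box variant CAGATG. The TEAD match at Foxa2 and the match at Olig1 are on the minus strand and appear as reverse complements. The first 3 windows lie in elements more accessible in p3. The window at Foxa2, chr2:148091801-148092100, holds a FOXA match at bases 139 to 145 and a TEAD match at bases 49 to 54, that nearest Mir466f-4, chr13:71003880-71004179, a FOXA variant at bases 81 to 87, and that in an intron of Corin, chr5:72411934-72412233, a FOXA variant at bases 293 to 299. The other 2 lie in elements more accessible in pMN. They are nearest Gm21269, chr7:73917926-73918225, with E-box variants at bases 109 to 114 and 257 to 262, and Olig1, chr16:91312495-91312794, with an E-box variant at bases 136 to 141. The window at Olig1 is from an element of ordinary size of difference, with a log2 fold change of -2.46. Among windows of the largest differences that are not shown, that nearest Gm4668 (5.89) held none of the 4 motifs, that in an intron of Gm12718 (-4.52) an E-box variant, and that in an intron of Esr1 (-4.28), higher in pMN, a TEAD match and no E-box variant.
Foxa2: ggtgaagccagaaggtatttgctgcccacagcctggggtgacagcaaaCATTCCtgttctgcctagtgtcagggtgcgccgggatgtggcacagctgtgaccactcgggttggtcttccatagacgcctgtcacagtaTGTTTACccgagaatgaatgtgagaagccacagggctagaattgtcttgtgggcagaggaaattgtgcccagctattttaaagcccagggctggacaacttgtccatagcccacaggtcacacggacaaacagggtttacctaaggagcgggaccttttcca
Mir466f-4: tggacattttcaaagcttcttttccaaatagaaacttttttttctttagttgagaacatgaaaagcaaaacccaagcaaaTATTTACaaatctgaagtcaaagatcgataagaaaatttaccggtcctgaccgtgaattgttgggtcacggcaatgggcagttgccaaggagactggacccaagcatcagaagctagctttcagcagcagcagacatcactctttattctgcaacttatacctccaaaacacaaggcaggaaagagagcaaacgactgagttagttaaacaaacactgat
Corin: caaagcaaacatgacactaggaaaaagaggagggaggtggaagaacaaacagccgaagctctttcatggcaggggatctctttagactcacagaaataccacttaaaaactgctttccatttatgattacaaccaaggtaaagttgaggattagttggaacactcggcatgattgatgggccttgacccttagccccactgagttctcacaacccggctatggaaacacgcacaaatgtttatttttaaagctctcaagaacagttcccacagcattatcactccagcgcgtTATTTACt
Gm21269: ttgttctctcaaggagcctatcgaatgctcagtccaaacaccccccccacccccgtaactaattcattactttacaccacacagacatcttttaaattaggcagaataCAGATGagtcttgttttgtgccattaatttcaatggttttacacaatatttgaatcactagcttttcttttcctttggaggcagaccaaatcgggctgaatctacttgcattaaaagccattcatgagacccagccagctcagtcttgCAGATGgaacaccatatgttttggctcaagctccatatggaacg
Olig1: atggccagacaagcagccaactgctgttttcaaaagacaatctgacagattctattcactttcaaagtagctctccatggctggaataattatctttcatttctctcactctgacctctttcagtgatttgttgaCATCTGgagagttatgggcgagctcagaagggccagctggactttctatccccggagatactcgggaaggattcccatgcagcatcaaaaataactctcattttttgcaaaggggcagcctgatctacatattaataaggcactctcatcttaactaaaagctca

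pMN and p3 differed at 1805 elements, 5.66% of the 31887 tested. Accessibility was higher in p3 at 633 of them (1.99%) and higher in pMN at 1172 (3.68%), so that 35.1% of the calls were on the p3 side. Elements around Foxa2, the pioneer TF of the floor plate and endoderm, and the promoter of Ferd3l, a floor plate bHLH gene, were among those higher in p3. Elements at the pMN genes Olig2, Olig1, Lhx3 and Neurog2 and at genes of neuronal differentiation were higher in pMN. A call required a Benjamini-Hochberg adjusted p below 0.01 from limma together with a log2 fold change in normalized counts (pseudocount 1) beyond 2 in either direction. Elements entered the test where their mean over the 10 samples exceeded 100 normalized counts. In all 1805 called elements the 5 samples of each type did not overlap, which was also the case for 37.7% of the elements tested. Without the threshold on the fold, 11685 elements (36.6%) had an adjusted p under 0.01, of which 5026 (15.8%) were higher in p3 and 6659 (20.9%) in pMN. The adjusted p and SE values in the text are from this fit, which did not use the replicate number of the samples. It thus treated the pMN and p3 samples as unpaired.

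**Figure D1:**
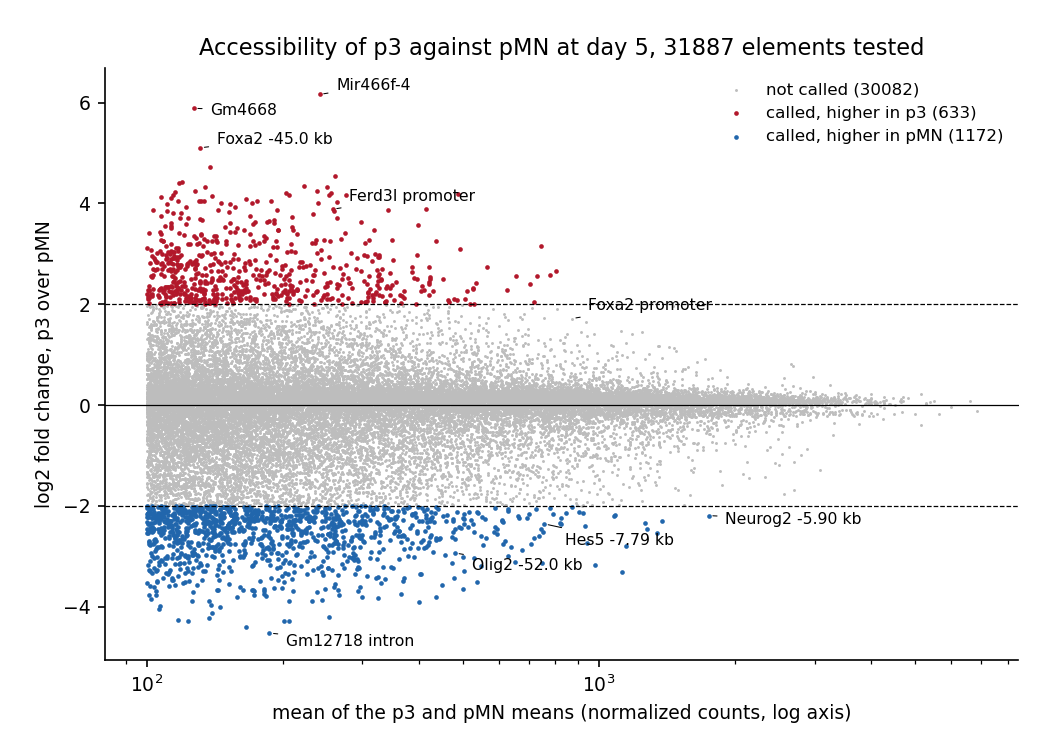
Log2 fold change of p3 over pMN against the mean of the group means (normalized counts, log axis) for the 31887 elements tested, with 1 point per element and the calls in red (633, higher in p3) and blue (1172, higher in pMN). Dashed lines mark the thresholds of 2 and -2. The called elements reached 6.16 on the p3 side and -4.52 on the pMN side.

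Among called elements the median log2 fold change was 2.54 for those higher in p3 (interquartile range 2.24 to 3.00) and -2.44 for those higher in pMN (-2.81 to -2.21). The elements higher in p3 had a median of 266.7 normalized counts in p3 and 43.6 in pMN, and those higher in pMN had medians of 51.5 in p3 and 296.1 in pMN. The elements tested had a median log2 fold change of 0.08.

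Foxa2 had, with 9430078K24Rik, the most elements called higher in p3, although the latter had 2 more called higher in pMN. Of the 15 tested elements of Foxa2, 3 were called higher in p3 and 1 in pMN. At an adjusted p under 0.01, 12 were higher in p3 and 1 in pMN, where 15.8% and 20.9% of all elements were. The intergenic element at -44981 bp from the TSS, chr2:148091524-148092376, from which the Foxa2 window above is taken, had 297, 136 and 305 normalized counts in p3 at 100 nM SAG and 123 and 421 at 500 nM. In pMN the same element had 3.77, 9.20 and 4.44 at 100 nM and 5.07 and 9.92 at 500 nM. The lowest p3 sample, at 123, was thus above the highest pMN sample, at 9.92, and the log2 fold change was 5.11, with a difference of 3.87 ± 0.32 (SE) in VST (adjusted p = 9.31e-07). The elements at 157957 bp, chr2:147888553-147889471, and at -32248 bp, chr2:148078098-148080336, rose from 19.9 ± 5.32 to 426 ± 134 and from 28.0 ± 8.53 to 524 ± 268 normalized counts between pMN and p3 (SD, n = 5), with log2 fold changes of 4.35 and 4.18. At the Foxa2 promoter, chr2:148044037-148046986, the samples had 1313, 1078, 1440, 1210 and 1639 normalized counts in p3 and 291, 310, 447, 461 and 520 in pMN. The promoter was therefore open in both types, with no overlap between them, and its log2 fold change of 1.72 (adjusted p = 8.70e-07) fell short of the threshold on the fold.

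**Figure D2:**
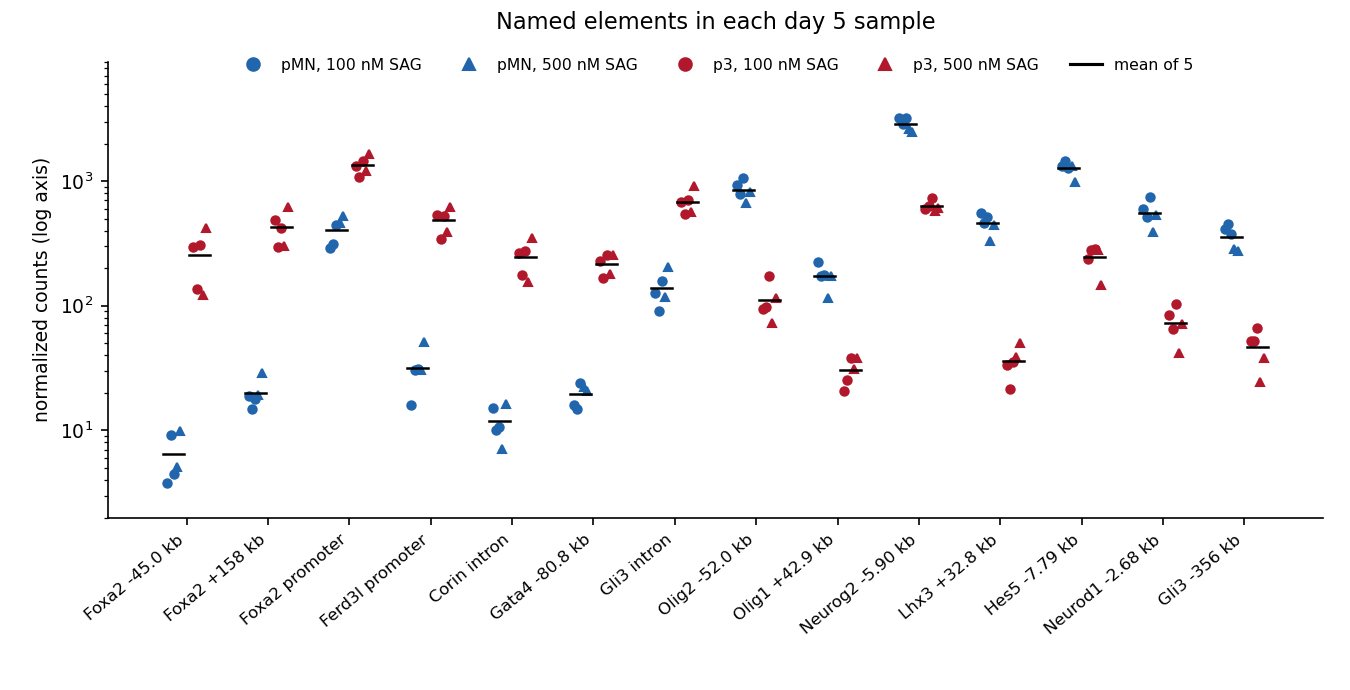
Normalized counts (log axis) of 14 named elements in each of the 10 samples, with pMN in blue, p3 in red, circles for 100 nM SAG, triangles for 500 nM and a black line for the mean of 5. The first 7 elements are higher in p3 and the last 7 in pMN, and the samples of the 2 types did not overlap at any of them.

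Genes of p3 identity had calls in both directions. Of 54 tested elements nearest to 8 of its 9 genes, 3 were called higher in p3 and 3 in pMN (5.56% each, against 1.99% and 3.68% of all elements), with a median log2 fold change of 0.47, against 0.08 over all elements. The 3 higher in p3 were those of Foxa2, and those higher in pMN were at Foxa2, at Sim1, a bHLH-PAS gene of V3 neurons, and at Uncx, a homeobox gene. The Sim1 element at 258061 bp went from 412 ± 63.2 normalized counts in pMN to 75.1 ± 20.2 in p3 (SD, n = 5), and the log2 fold change was -2.44 (adjusted p = 2.26e-07). Without the threshold on the fold, 30 of the 54 elements were higher in p3, among them 5 of 8 at Foxa1 and 4 of 6 at Lmx1b, and 9 in pMN, where 15.8% and 20.9% of all elements were. The promoters of Foxa1 and Nkx2-9 had log2 fold changes of 0.55 and 0.35, both past the adjusted p alone, with 737 ± 52.5 and 2376 ± 122 normalized counts in p3 against 503 ± 34.6 and 1868 ± 259 in pMN.

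Floor plate genes had 4 of 33 tested elements called higher in p3 (12.1%, against 1.99% of all elements) and 1 in pMN, with a median log2 fold change of 0.45. The 4 were 2 at Shh, the secreted ligand, and 1 each at Ferd3l and Corin, a membrane serine protease of the floor plate. At an adjusted p under 0.01, 20 of the 33 were higher in p3 and 4 in pMN, where 15.8% and 20.9% of all elements were. All 4 tested Shh elements were among those higher in p3, with log2 fold changes of 1.07 to 3.29. The Ferd3l promoter, chr12:33926966-33929399, had 539, 344 and 528 normalized counts in p3 at 100 nM SAG and 387 and 622 at 500 nM, against 15.8, 30.3, 31.1, 30.4 and 51.4 in pMN. Every p3 sample was above every pMN sample, and the log2 fold change of 3.89 was the largest of any promoter (difference in VST 3.52 ± 0.21 (SE), adjusted p = 8.40e-08). In the intron of Corin, 92125 bp from the TSS, the mean went from 11.8 ± 3.76 normalized counts in pMN to 244 ± 78.6 in p3 (SD, n = 5), a log2 fold change of 4.25 (adjusted p = 1.67e-07). The element at the Corin TSS had 87.0 ± 10.4 in p3 and 79.7 ± 10.5 in pMN and did not reach the minimum of 100 for testing. Among the other floor plate genes, Ntn1, Lmx1a and Spon1 had no called element, and Slit2, a secreted guidance cue, had 1 that was higher in pMN, at -486849 bp, with a log2 fold change of -3.14. The floor plate markers' summed accessibility was higher in every p3 sample than in every pMN sample, as given above, and its part in these differences was not tested.

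Outside these lists, the largest gain in p3 was at an intergenic element nearest Mir466f-4, chr13:71003402-71004656. It had 552, 304 and 543 normalized counts in p3 at 100 nM SAG and 280 and 706 at 500 nM, against 4.53, 6.44 and 5.33 and then 3.04 and 9.02 in pMN. With the pseudocount the mean of p3 was 71.7 times that of pMN, a log2 fold change of 6.16 (difference in VST 4.87 ± 0.25 (SE), adjusted p = 4.02e-08). An element 199977 bp from Gm4668 came next, at 3.26 ± 1.81 normalized counts in pMN against 251 ± 116 in p3 (SD, n = 5), with a log2 fold change of 5.89. Elements nearest 1110002J07Rik, Rplp1, Helt, a bHLH gene of the midbrain, and 4933417O13Rik, in an intron of Kcnq1, followed with log2 fold changes of 4.40 to 4.72. In the list of FOXA partners and endoderm genes, 1 of 33 tested elements was called higher in p3 (3.03%, near the 1.99% of all elements). In pMN 0 were called, against 3.68% of all elements, and the median log2 fold change was 0.06, against 0.08 over all. The called element lay -80769 bp from Gata4, a zinc finger TF of endoderm and heart. It rose from 19.5 ± 4.06 normalized counts in pMN to 217 ± 41.2 in p3 (SD, n = 5), for a log2 fold change of 3.41 (adjusted p = 6.21e-08).

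Genes of pMN identity had the largest share of elements called higher in pMN, 11 of 40 (27.5%, against 3.68% of all elements), and 0 called higher in p3. At an adjusted p under 0.01, 28 of the 40 were higher in pMN and 2 in p3, where 20.9% and 15.8% of all elements were. The median log2 fold change of the 40 was -1.01. Olig2 and Olig1, which lie side by side, had 3 called elements each, and all 7 tested elements of Olig2 and all 6 of Olig1 were higher in pMN at an adjusted p under 0.01. The element at -51954 bp from Olig2, chr16:91172837-91174356, had 931, 784 and 1054 normalized counts in pMN at 100 nM SAG and 668 and 817 at 500 nM. In p3 it had 94.2, 96.8, 173, 72.0 and 116, below every pMN sample, and the log2 fold change was -2.93 (difference in VST -2.85 ± 0.17 (SE), adjusted p = 9.65e-08). At 42875 bp from Olig1 the means were 173 ± 38.4 in pMN and 30.7 ± 7.68 in p3 (SD, n = 5), with a log2 fold change of -2.46.

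The largest difference in this list was at Lhx3, a LIM homeodomain TF of motor neurons. Its element at 32803 bp, chr2:26175047-26175846, had 557, 459, 513, 330 and 447 normalized counts in pMN and 33.2, 21.6, 35.2, 38.9 and 50.7 in p3, for a log2 fold change of -3.65 (adjusted p = 5.71e-08). All pMN samples were above all p3 samples. Neurog2, a proneural bHLH gene, had its called element at -5902 bp, with 2870 ± 325 normalized counts in pMN and 627 ± 62.4 in p3 (SD, n = 5) and a log2 fold change of -2.19 (adjusted p = 3.21e-09). Elements were also called at Lhx4 and Mnx1, homeobox genes of motor neurons, with log2 fold changes of -2.51 and -2.60 for the largest of each. The TSS elements of Isl1 and Mnx1 differed by log2 fold changes of 0.04 and -0.04 (adjusted p = 0.557 and 0.687), whereas those of Slc18a3 and Lhx3 differed by -0.47 and -0.31 (adjusted p = 0.00229 and 0.0183). Isl1, Isl2 and Slc18a3, which mark postmitotic motor neurons, had no called element. By the adjusted p alone, 3 of the 4 tested elements of Slc18a3 were higher in pMN, where 20.9% of all elements were.

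Genes of neuronal differentiation had 10 of 65 tested elements called higher in pMN (15.4%, against 3.68% of all elements) and 0 in p3, with a median log2 fold change of -0.54. At an adjusted p under 0.01, 43 of the 65 were higher in pMN and 1 in p3, where 20.9% and 15.8% of all elements were. They included 2 elements at Ebf1, an early neuronal TF, and 2 at Nhlh1, a bHLH gene of newborn neurons. An element at -2679 bp from Neurod1 had 592, 514, 750, 387 and 530 normalized counts in pMN and 84.3, 64.9, 103, 41.9 and 71.5 in p3, for a log2 fold change of -2.91 (adjusted p = 9.06e-08), and an element 146473 bp from Elavl4 had one of -2.73. pMN was above p3 in every sample at both. The TSS elements of 4 of the 5 postmitotic neuron markers, Tubb3, Elavl3, Elavl4 and Stmn2, were higher in pMN at an adjusted p under 0.01, with log2 fold changes of -0.37 to -0.66. That of the fifth, Dcx, had 141 ± 17.2 normalized counts in pMN against 48.7 ± 7.99 in p3 (SD, n = 5) and was not tested. The sort had taken SOX2+ cells, and the part of neurons in these differences was not tested.

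In the list of intermediate progenitor identity, mostly genes of more dorsal progenitors, 11 of 98 tested elements were called higher in pMN (11.2%, against 3.68% of all elements) and 0 in p3, with a median log2 fold change of -0.22. The list also holds Nkx6-1, which the study places in p3, pMN and p2, with 0 of 18 tested elements called. At an adjusted p under 0.01, 40 of the 98 were higher in pMN and 14 in p3, where 20.9% and 15.8% of all elements were. Calls were at 8 of the 18 genes of the list, and at Pax7 4 elements were higher in p3 by the adjusted p and 3 in pMN. The called elements lay at Irx3, Sp8 and Foxn4, with 2 each, and at Pax6, Dbx1, Dbx2, Nkx6-2 and Pax7. The largest difference was at -16352 bp from Sp8, a zinc finger TF, where pMN had 525 ± 81.5 normalized counts and p3 60.5 ± 19.3 (SD, n = 5), a log2 fold change of -3.10 (adjusted p = 1.37e-07). At -59780 bp from Dbx1, a homeobox gene of p0, the means were 322 ± 58.7 and 38.5 ± 20.1, with a log2 fold change of -3.03. All 5 tested elements at Pax6, the homeodomain TF of progenitors above p3, were higher in pMN at an adjusted p under 0.01, with log2 fold changes of -2.34 to -0.52.

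Notch genes had 3 of 63 tested elements called higher in pMN (4.76%, near the 3.68% of all elements) and 0 in p3. At an adjusted p under 0.01, 27 of the 63 were higher in pMN and 13 in p3, where 20.9% and 15.8% of all elements were. Of the 3 called elements, 2 lay at Hes5, a transcriptional effector of Notch, and 1 at Hey2, a related repressor. The Hes5 element at -7788 bp had 1317, 1444, 1283, 1312 and 977 normalized counts in pMN and 236, 281, 286, 282 and 148 in p3, for a log2 fold change of -2.36 (adjusted p = 1.35e-07). All 5 tested elements at Hes5 and all 5 at the ligand gene Dll1 were higher in pMN at an adjusted p under 0.01. General neural progenitor genes had 2 of 71 tested elements called, both at Hes5, and 0 of the 6 tested elements at Sox2, the TF used to sort NPs, were called (1 had an adjusted p under 0.01, higher in pMN).

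Hedgehog pathway genes showed differences in both directions, with 2 of 45 tested elements called higher in p3 and 3 in pMN (4.44% and 6.67%, against 1.99% and 3.68% of all elements) and a median log2 fold change of -0.10. Gli3, the TF that mostly represses in the absence of Shh, had an element of each kind. The intronic element at 139823 bp from its TSS rose from 139 ± 43.4 normalized counts in pMN to 684 ± 149 in p3 (SD, n = 5), for a log2 fold change of 2.29 (adjusted p = 1.13e-06). The intergenic element at -355573 bp had 46.7 ± 16.1 in p3 and 359 ± 78.1 in pMN, for a log2 fold change of -2.92 (adjusted p = 1.89e-08). At Disp1, whose product releases Shh from cells, the element at -7227 bp was higher in p3 (233 ± 76.1 against 38.0 ± 9.46, log2 fold change 2.58). An intronic element of Hhip, which encodes a membrane antagonist of Shh, was higher in pMN (730 ± 109 against 106 ± 24.5, log2 fold change -2.77), as was an element at the coreceptor gene Gas1, with a log2 fold change of -2.13. Ptch1, the Shh receptor gene and a direct target of the pathway, had 0 of 10 tested elements called, with log2 fold changes of -1.14 to 0.56. By the adjusted p alone, 1 was higher in p3 and 1 in pMN, where 15.8% and 20.9% of all elements were.

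Over all elements, 1.99% were called higher in p3 and 3.68% in pMN, and the Wnt and BMP, retinoic acid and FGF lists were near these shares. Wnt and BMP genes had 2 of 96 tested elements called in each direction (2.08%) and a median log2 fold change of -0.0047. Higher in p3 were intronic elements of Tcf7l1 and Tcf7l2, TFs of the Wnt pathway, with log2 fold changes of 2.26 and 2.10, and higher in pMN were elements at Axin2 and Sfrp1, inhibitors of Wnt signaling, with -2.45 and -2.35. Retinoic acid genes had 1 of 42 called in each direction (2.38%), at Rdh10, which makes retinaldehyde, in p3 (log2 fold change 2.25) and at Cyp26a1, which degrades retinoic acid, in pMN (-2.85). FGF genes had 2 of 51 called higher in pMN (3.92%), at Fgfr2 and Spry2 (-2.08 and -2.12), and 0 in p3. At an adjusted p under 0.01, 14 of the 51 were higher in pMN and 7 in p3, where 20.9% and 15.8% of all elements were. Axon guidance genes had 12 of 119 called higher in pMN (10.1%) and 1 in p3 (0.840%), with a median of -0.19. The 2 largest were in introns of Robo2 and Slit3, a receptor and a ligand of that family, with log2 fold changes of -3.31 and -3.15, and that in p3 lay at the semaphorin receptor gene Plxna2 (2.60). Lists for NMP and mesoderm, pluripotency and neural crest had 0 of 11, 14 and 18 tested elements called by limma. At an adjusted p under 0.01 were 2, 7 and 6, where 36.6% of all elements were. Of these, 2, 4 and 2 were higher in p3 and 0, 3 and 4 in pMN. The list of NFI and late progenitor genes had 1 of 32 called, in an intron of Nfia (-2.80).

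Most of the difference lay far from promoters. Of the 6869 promoter-TSS elements tested, 17 were called (0.247%), 7 higher in p3 and 10 in pMN, against 812 of 11244 intronic elements (7.22%) and 929 of 9653 intergenic elements (9.62%). The share was 1.03% in exons and 1.92% at transcription termination sites. By distance, it rose from 0.180% within 1000 bp of a TSS to 12.5% beyond 500000 bp. Elements higher in p3 were most frequent between 100000 and 200000 bp, at 4.55%, and made up 2.01% beyond 500000 bp, where those higher in pMN reached 10.5%. The distance of the called elements to the TSS had a median of 47292 bp for p3 and 57172 bp for pMN, against 7765.5 bp for elements not called.

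**Figure D3:**
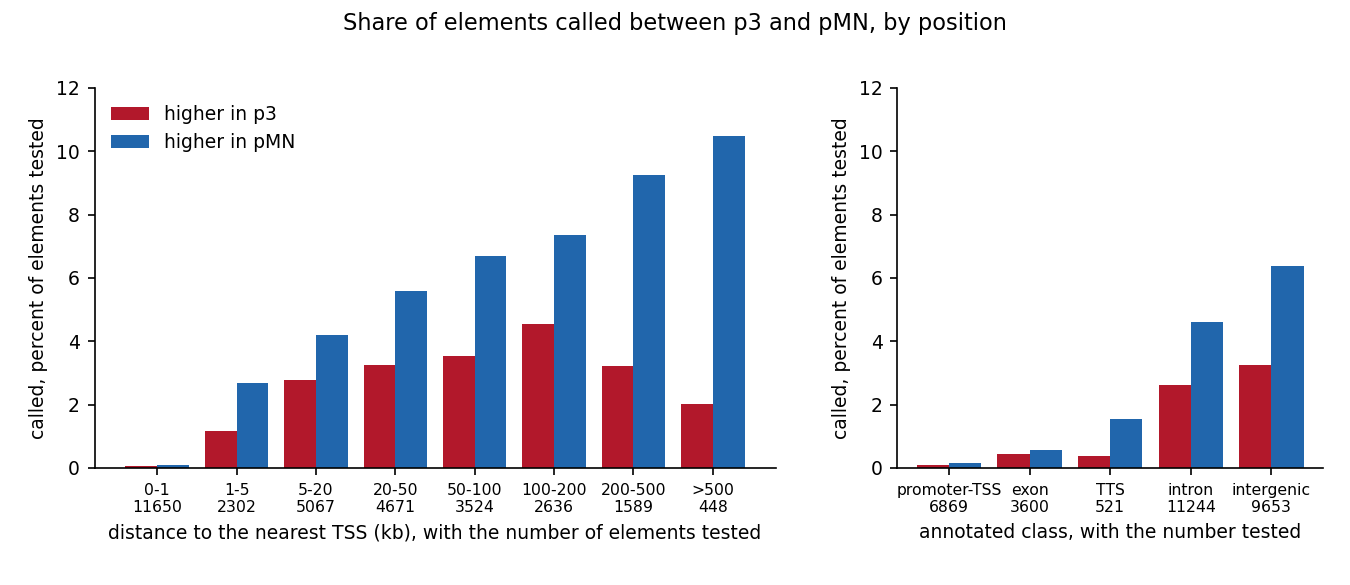
Percent of tested elements called higher in p3 (red) and in pMN (blue), by distance to the nearest TSS in kb (left) and by annotated class (right), with the number tested under each bar pair. Near promoters the bars are close to 0, and away from them the blue bars are higher than the red ones in every bin and class.

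Called elements were narrower and poorer in GC than the others. Their median GC content was 45.7% for p3 and 46.4% for pMN, against 52.8% for elements not called, and their median width was 1017 and 1058.5 bp, against 1364 bp. Among distal elements, 12.4% of those in the lowest quartile of GC were called and 0.448% of those in the highest. Promoter elements had a higher GC content (58.7%) and more reads (median of 781 normalized counts) than intergenic ones (47.8% and 200.3), and these properties moved with the class. Their part in the difference between classes was not tested.

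The promoters that were called were mostly not those of the TFs that define the domains. After Ferd3l, the largest gain in p3 was at an internal promoter of Acvr1, a BMP type I receptor gene, at 32.5 ± 13.4 normalized counts in pMN against 387 ± 119 in p3 (SD, n = 5) and a log2 fold change of 3.53, followed by 1700054K19Rik, Gm12530, BB014433 and 1700094D03Rik with 2.24 to 3.08. Higher in pMN was first 9230020A06Rik, with 192 ± 43.3 in pMN and 12.5 ± 4.31 in p3 (log2 fold change -3.84). Then came Ndst4, a heparan sulfate sulfotransferase gene (-2.57), Nhlh1 (-2.32), an internal promoter of Dst (-2.32), an alternative promoter of Eya2 (-2.32) and Lrrtm2, a gene of synaptic adhesion (-2.29). The Nhlh1 promoter had 315, 302, 393, 175 and 340 normalized counts in pMN and 86.1, 52.2, 47.5, 67.2 and 48.2 in p3. The lowest pMN sample was thus above every p3 sample.

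Called elements were spread over many genes. They lay nearest to 1537 genes, of which 215 had at least 2, and of these 33 had all their calls in p3, 113 had them all in pMN and 69 had calls in both directions. In pMN, Sall1, a zinc finger TF gene with 1 further element higher in p3, Tenm3, a teneurin of neuronal adhesion, and 9330117O12Rik each had 5 called elements, of 18, 24 and 9 tested, and Paqr3 and Stk32a had 4 each of 6 tested. The element at -89277 bp from Paqr3 had 1794, 1549, 1609, 1491 and 1397 normalized counts in pMN and 299.6, 299.2, 348, 283 and 248 in p3 (log2 fold change -2.40). Cdh23, Nrxn3 and Alpk1 had 3 each. In p3, Thoc3, D030024E09Rik, Icos and Dnm1l had 2 called elements each, as did Pard3bos2, which had 1 more in the opposite direction, and Mir218-2, in introns of Slit3. Neighboring called elements less than 10000 bp apart had the same direction in 34 of 38 pairs, 28 of them both higher in pMN. Within 100000 bp this was so in 173 of 251 pairs, 139 of them both higher in pMN. With 1172 of the 1805 calls higher in pMN, many pairs would share a direction by chance, and an excess was not tested.

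SAG did not detectably alter the difference between the cell types. By limma, 0 of 31887 elements had an interaction of cell type and SAG at an adjusted p under 0.01, and 98 had an unadjusted p under 0.05. The smallest adjusted p was 1.00, and limma with voom on recovered reads likewise called 0, with 62 at an unadjusted p under 0.05. The main effect of SAG was called at 0 elements, with 1285 at an unadjusted p under 0.05. With 2 samples per type at 500 nM, only large interactions could be seen. Both concentrations entered the call, so the values of called elements at each are a description. All 1805 had the same direction at 100 and 500 nM, 1547 passed the fold threshold at both, and the median absolute log2 fold change was 2.52 at 100 nM and 2.39 at 500 nM.

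Samples that shared a replicate number in their titles resembled each other across cell types and SAG concentrations. At the 633 elements higher in p3, the p3 samples of number 2 had medians of 207.5 and 203.4 normalized counts at 100 and 500 nM, below the 284 of number 1 at 100 nM and the 290.2 and 366 of number 3 at 100 and 500 nM. The 2 samples of number 2 were the lowest of the 5 p3 samples in 532 of the 633 elements (84.0%). pMN from 500 nM of number 3 was the highest of the pMN samples in 445 of these elements (70.3%). These samples made the calls, so values within a number are a description. The median log2 fold changes of p3-higher elements were 2.81, 2.42 and 2.58 within numbers 1, 2 and 3, and those of pMN-higher elements -2.74, -2.47 and -2.39.

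The elements called at day 5 were followed in samples that had not entered the call. At day 4, the 5 p3 and 6 pMN samples did not overlap, in the direction of day 5, at 344 of the 633 elements higher in p3 (54.3%, against 6.33% of all elements tested) and at 939 of the 1172 higher in pMN (80.1%, against 13%). At day 6, with 4 samples of each, this was so for 631 (99.7%, against 16.4%) and 1169 (99.7%, against 23.6%). At neither day did the samples separate in the opposite direction at any of the 1805. The samples of these days carry the same replicate numbers as those of day 5.

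The 2 sets of elements differed in where else they were accessible. Elements higher in p3 had a median of 10.9 normalized counts in NMPs and rose in p3 from 111 and 166 at day 4 (100 and 500 nM SAG) to 258 and 278 at day 5 and 384 and 427 at day 6. In p0-1, p2 and pMN their medians stayed between 27 and 75.2 on all days. The 75.2 was that of p2 at 100 nM and day 6, where the medians of the 3 samples were uneven, at 43.2 to 131. Elements higher in pMN had a median of 13 in NMPs and were also accessible in p0-1 and p2. Among p0-1, p2 and pMN at day 5, the median was lowest in p0-1 at 0 nM SAG, at 197. The medians were 262 in p0-1 at 10 nM, 350 and 264 in p2 (10 and 100 nM) and 315 and 270 in pMN (100 and 500 nM). In p3 these elements had between 39.7 and 62.0 on all days.

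**Figure D4:**
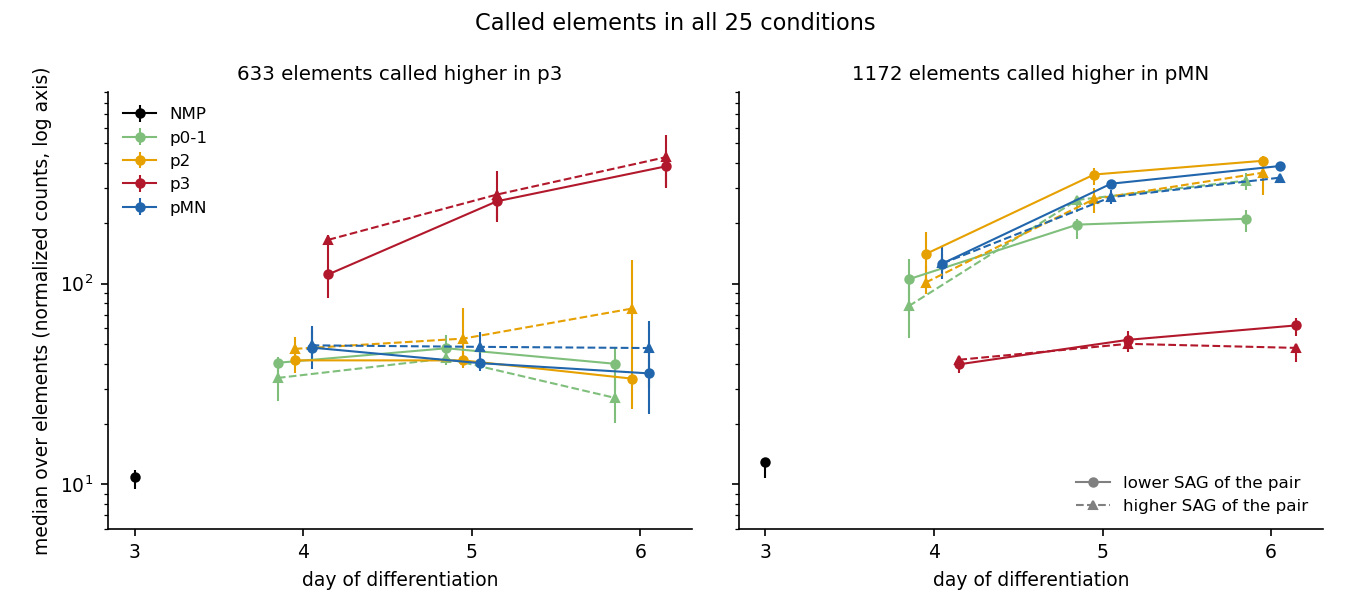
Median over the 633 elements called higher in p3 (left) and the 1172 called higher in pMN (right) in each of the 25 conditions (normalized counts, log axis) by day of differentiation, with bars from the lowest to the highest sample median. The red points of p3 rise on the left from 111 to 427 while the points of the other types do not exceed 75.2. The highest of these is p2 at 100 nM, which rose from 47.4 to 75.2, with sample medians of 43.2 to 131 at day 6. On the right p3 does not exceed 62.0 while the other 3 NP types rise together.

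Set against the other NP types of day 5, all 5 p3 samples were above all 6 p2 samples at 630 of the 633 p3-higher elements (99.5%, against 16% of all elements tested) and above all 6 p0-1 samples at 596 (94.2%, against 14.4%). At the pMN-higher elements, all p3 samples were below all p2 samples at 1102 of 1172 (94.0%, against 15%) and below all p0-1 samples at 833 (71.1%, against 13.9%). The p3 samples are those that made the calls, which favors such separation, and these counts are a description. The p0-1 mean was nearer to p3 than to pMN at 413 of the 1172 (35.2%), and the p2 mean at 73 (6.23%). The element at Olig2 was an example of shared accessibility, with 399.6 and 592 normalized counts in p0-1 and 813 and 770 in p2 at day 5, against 121 and 94.2 in p3. Lhx3 differed, with 46.7 and 52.6 in p0-1, 92.6 and 231 in p2 and 510 and 388 in pMN. At the element at -44981 bp from Foxa2, p3 went from 47.7 and 92.8 at day 4 to 633 and 913 at day 6, and p0-1 and pMN remained at or below 24.3, while p2 reached 113 in the 100 nM condition of day 6. The samples of that p2 condition were uneven, with medians of 43.2 to 131 over the p3-higher elements.

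Short motifs were counted in the central 300 bp of the distal elements, on both strands, as a description of sequence. TGTTTAC, the core bound by FOXA factors, was found in 15.8% of the 626 distal elements higher in p3, 2.58% of the 1162 higher in pMN and 3.81% of the 23230 not called, and in 3.63% of all elements tested. The variant TATTTAC was in 9.42%, 2.5% and 2.88% of these, and 24.6% of the p3 elements held at least 1 of these, against 4.99% and 6.55%. GGAATG, the core bound by TEAD factors, was in 31.5% of p3 elements, 19.5% of pMN elements and 17.7% of those not called. CAGATG, an E-box of the kind bound by proneural bHLH factors, was in 38.4% of pMN elements, 22.2% of p3 elements and 20.7% of those not called. AACAAT, the core bound by SOX factors, was similarly frequent in both, with 24.8% and 24.4% against 15.9%. GACCACC, the GLI core, was in 2.40%, 3.70% and 3.37%, and CACTTGA, an NKX2 core, in 4.47%, 4.48% and 3.45%. GTTGCC, an RFX half-site, was in 16.1% of p3 elements, 9.29% of pMN elements and 12.5% of those not called. The E-boxes CAGCTG and CATATG were in 17.9% and 5.59% of p3 elements, 23.9% and 6.88% of pMN elements and 20.7% and 3.65% of those not called.

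The FOXA share was higher in p3 elements in each of the 3 lower quartiles of GC content of the distal elements. There, FOXA or its variant was in 22.8%, 29.3% and 16.1% of p3 elements, against 6.16%, 4.26% and 4% of pMN elements and 11.5%, 9.01% and 4.50% of those not called. The highest quartile had only 2 p3 elements. CAGATG was in 35.1%, 38.8%, 42.0% and 57.7% of pMN elements from the lowest to the highest quartile, against 24.1%, 24.6%, 22.9% and 12.3% of those not called, with 26 pMN elements in the last. Of the 20 distal p3 elements with the largest fold change, 11 held FOXA or its variant, 5 held GGAATG, and of the 20 largest in pMN, 13 held CAGATG. The median log2 fold change was 2.78 with FOXA or its variant and 2.46 without among p3 elements, and 2.52 with GGAATG and 2.56 without. Among pMN elements it was -2.45 with CAGATG and -2.44 without. The window of Ferd3l held none of the 4 motifs.

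**Figure D5:**
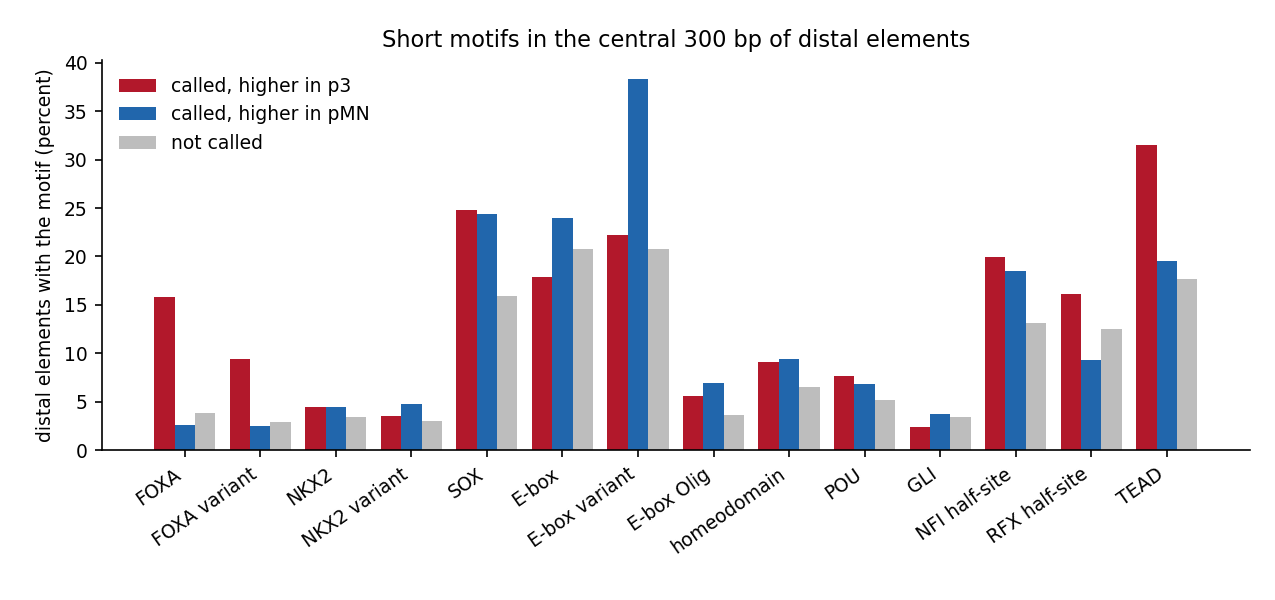
Percent of distal elements with each of 14 short motifs in the central 300 bp, for elements called higher in p3 (626, red), called higher in pMN (1162, blue) and not called (23230, grey). The red bars stand above the others for, among other motifs, FOXA (15.8%), FOXA variant (9.42%), TEAD (31.5%) and the RFX half-site (16.1%), and the blue bars for the E-box variant (38.4%) and the E-box (23.9%).

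The threshold on the fold separated elements with nearly the same values. Among elements with an adjusted p under 0.01, those just inside it on the p3 side were nearest Laptm4a, Foxd2 and Mrpl48, with log2 fold changes of 2.0012, 2.0007 and 2.0002, and those just outside nearest Ddah1, Tmem132cos and Fam43a, with 1.9971, 1.9950 and 1.9944. On the pMN side, elements nearest Snhg20, D030018L15Rik and Rad51b were just inside, at -2.0004, -2.0008 and -2.0014, and those nearest Zbtb18, Mrps33 and Fbxo16 just outside, at -1.9988, -1.9988 and -1.9989.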

How the data were processed

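Accessibility was measured by CaTS-ATAC, and the mm10 alignment, peak calling with MACS, consensus elements and their annotation were the authors' own. The deposited values are on a log2 scale, the authors' variance-stabilizing transformation of size-factor normalized counts. The transformation was inverted, and below 1000 reads 100% of recovered values were whole to within 1e-04. Every test used limma 3.58.1 (R 4.3.3) on the deposited log2 values with SAG as covariate, a variance trend and Benjamini-Hochberg adjustment, two-sided, since deposited values were not counts. Fold changes are ratios of group means of normalized counts with a pseudocount of 1. The thresholds were an adjusted p of 0.01, a log2 fold change of 2 and a mean of 100. The study describes its ATAC-seq replicates as independent differentiations. It sorted several cell types from each condition, which let it compare types taken from 1 dish. The design therefore pairs pMN with p3, though the labels do not name the dish. Samples of different SAG concentrations with the same number may share a differentiation. Title numbers were taken to pair the samples: deviations from condition means correlated at 0.409 to 0.745 in all 13 same-number pairs. The 24 other pairs had a median of -0.33. Centering each condition on the mean of its few samples makes some values negative, so the negative median adds nothing to the positive values. It does not set which pairs are positive, and no pair with different numbers exceeded 0.181. Named elements were the 8 largest called in each direction, 6 promoters in each, the 8 genes with most called elements, for identity genes the promoter and largest called element, for other lists the 2 largest called in each direction, and the 3 nearest the fold threshold. Elements singled out beyond this rule were chosen after their values were seen. The groups, 17 gene lists and 14 motifs were chosen with earlier results of these data known. The fits were tested on simulated data. Some genes and sequences are not reported here.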

Additional observations from a re-analysis of the deposited data

Results flagged for a closer look

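Of 252 groups of 5 samples, the 5 p3 or the 5 pMN values of each named element, 8 had a sample far from the other 4, where chance gives about 1 group in 20. In pMN from 500 nM SAG, replicate 3 was the highest at 4 elements gained in p3. It had 20.7 normalized counts nearest 4933417O13Rik (the others 4.53 to 9.13), 60.4 nearest Dnm1l (25.8 to 33.5), 48.7 nearest Pard3bos2 (20.2 to 26.6) and 155 nearest Mir218-2 (79.1 to 98.1). The same sample was the highest pMN sample in 70.3% of the elements called higher in p3. In pMN from 100 nM SAG, replicate 2 was the lowest at the promoter of BB014433, with 27.6 normalized counts (37.3 to 40.6), and replicate 1 the highest in an intron of Robo2, with 496 (359 to 361). In p3, replicate 3 was the highest at both concentrations in turn, with 87.1 normalized counts in an intron of Nrxn3 at 100 nM (50.2 to 58.6) and 19.9 nearest Arrdc4 at 500 nM (6.81 to 9.67).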

How the results depend on the processing

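The 1805 calls, 633 in p3, 1172 in pMN and 17 at promoters, depended on the thresholds. Without the filter on the mean there were 9896, 4141, 5755 and 76, with a minimum mean of 50 there were 3773, 1495, 2278 and 35, and with a log2 fold change beyond 1 there were 6080, 2230, 3850 and 88. Blocking on the replicate numbers of the titles, to use the pairing, changed no call (1805, all shared), nor did blocking on the numbers of the descriptions, leaving out SAG, fitting all 22 day 5 samples or dropping the variance trend. Those fits leave the fold change as it is, and 11685 elements pass the adjusted p, so the fold decides the call and the equal counts do not speak to stability. The adjusted p by limma did change with the block on title numbers. At the element -44981 bp from Foxa2 it went from 9.31e-07 to 5.61e-09. How many elements passed the adjusted p alone with this block is not given here. Leaving out a replicate gave 1758 to 1884 calls, 570 to 709 in p3, 1123 to 1269 in pMN and 15 to 19 at promoters. The other settings gave 1383 (500 nM SAG only, where 467 calls were lost) to 1983 (100 nM only), and p3 made up 30.5% to 43.7% of the calls, the highest after a GC correction. The interaction with SAG had 0 calls by limma under every alternative that gave a value, with 46 to 1212 at an unadjusted p under 0.05, and could not be fitted without the covariate or at 1 concentration. Of 115 named elements called, 89 were called under all 26 alternatives, and 0 reversed. Groups of 2 samples at 500 nM and the minimum of 100 normalized counts limit what could be seen. Scaling moved the median log2 fold change of the elements tested from 0.08 to between -0.0013 and 0.14.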
